A study of Mus musculus with 12 samples.

Results

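The 31 genes described here are the myelin and oligodendrocyte lineage genes of the mouse cerebellum, taken by name from a written list and found by Ensembl identifier among the 56941 genes of each count table. They fall into 2 genes of the oligodendrocyte precursor (Pdgfra, Cspg4), 3 of the newly formed oligodendrocyte (Enpp6, Bcas1, Gpr17), 5 lineage transcription factors (Olig1, Olig2, Sox10, Myrf, Nkx6-2) and 21 genes of the mature, myelinating cell. RNA-seq was performed on the cerebellum of 12 male and female C57BL/6J mice after a 12 week wheel-running study. Mice heterozygous for an expanded ataxin-1 allele with 154 glutamines (Atxn1 154Q/2Q, a knock-in model of spinocerebellar ataxia type 1, hereafter SCA1) and wild-type (WT) littermates were either sedentary or had a running wheel from 4 to 16 weeks of age. Each genotype thus gave a sedentary and an exercise group, with 3 mice in each of the 4. Ataxin-1 is a nuclear protein made in many cell types, and a knock-in allele is under the gene's own promoter, so oligodendrocytes as well as neurons can carry the expanded form. Runners were housed alone and sedentary mice in groups, so running and housing cannot be told apart. The study's methods state that wheels were taken out before motor and cognitive testing, and that tissue was collected after the last test. The exercise values are therefore from mice whose wheels had already been removed.

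Oligodendrocytes wrap axons of the central nervous system in myelin, a lipid-rich membrane that speeds conduction. They arise from dividing precursors that carry the PDGF receptor alpha (Pdgfra) and the proteoglycan NG2 (Cspg4), pass through a short premyelinating stage, and then make myelin proteins and galactolipids under Olig1, Olig2, Sox10, Nkx6-2 and Myrf, the last of which turns on the myelin genes themselves. In the cerebellum most myelin lies in the white matter around Purkinje cell axons and incoming fibres, while the much more numerous granule cells carry little.

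Both myelin and hindbrain marks set a pair of libraries apart, and this comes before every comparison. SCA1 sedentary mouse 16 and SCA1 exercise mouse 55 had 6.38% and 6.33% of read pairs mapping to several places, against 2.08% to 3.46% in the other 10 libraries. The summed counts scaled to a common library size (CPM) of 16 Hox genes, which mark brainstem and spinal cord and are not made in the cerebellum proper, were 47.7 and 65.1 in these mice and 0.113 to 3.52 in the others. None of the 16 Hox genes was at 0 in mouse 16 or mouse 55, while 5 to 14 of them were at 0 in each other library. The summed CPM of 8 granule cell genes was 2886 and 3765, below the 5025 to 5909 of the others. The 31 members together made up 7879 CPM in mouse 16 and 6041 CPM in mouse 55, above the 2889.7 to 4785 CPM of the other 10. All 31 members were higher in mouse 16 than in any of those 10 libraries, and 28 of 31 were in mouse 55, against 28.8% and 21.5% of all genes tested. Read pairs assigned to no gene on the reverse strand were 39.3% and 44.1% in mice 16 and 55 and 46.0% to 58.7% in the others. The part of brainstem tissue or of this share in these values was not tested. Each of these mice belongs to an SCA1 group, so every comparison with that group is given with and without it. The study's methods state that 2 RNA samples had an integrity number not above 8 and were fragmented and amplified differently, and they are marked in a supplementary table of the study that was not used here. In RNA from whole tissue, fewer oligodendrocytes and less myelin RNA per cell cannot be told apart. Libraries held 20556802 to 32127508 reverse-strand counts, and the scarcest member value was 80 counts.

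**Figure D1:**
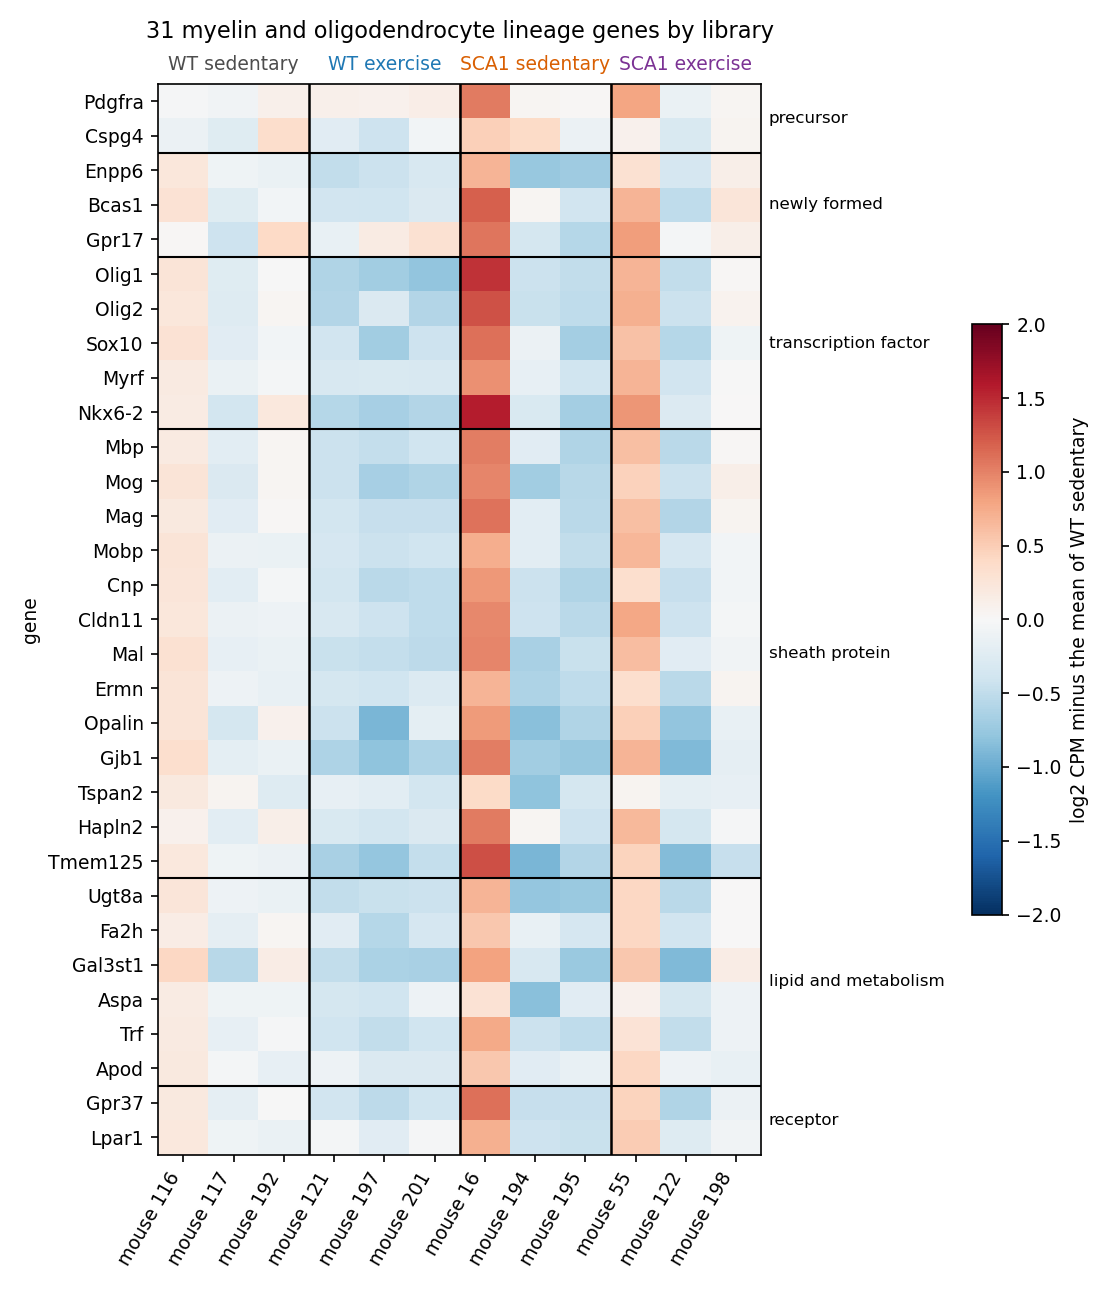
Each row is a member and each column a library. Colour shows log2 CPM minus the mean of the 3 WT sedentary libraries, red above and blue below. Mice 16 and 55 stand out in red in almost every row, and the 3 WT exercise libraries are blue in most rows, with Pdgfra, Gpr17 and Lpar1 among the pale ones.

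The excess in mice 16 and 55 was not even across the lineage. Against the median of the other 10 libraries, the transcription factors had a median ratio of 3.11 in mouse 16 and 2.11 in mouse 55, and the sheath proteins 2.47 and 1.87. Lipid and metabolism genes had ratios of 1.92 and 1.56, and the precursor genes 1.75 and 1.42. Nkx6-2, a homeodomain factor of the oligodendrocyte, was 3.78 times the median in mouse 16, while Aspa, which breaks down N-acetylaspartate, was 1.37 times it. The sum of 8 astrocyte and Bergmann glia genes was 3667 and 3864 CPM in these mice against 2359.8 to 3204. The genes of this list did not move together. In SCA1 sedentary against WT sedentary mice with all 12 libraries, 3 were higher and 5 lower. Groups were apart in 3 of the 8, all lower, against 5.76% of all genes, so those 3 were low in mouse 16 too.

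**Figure D2:**
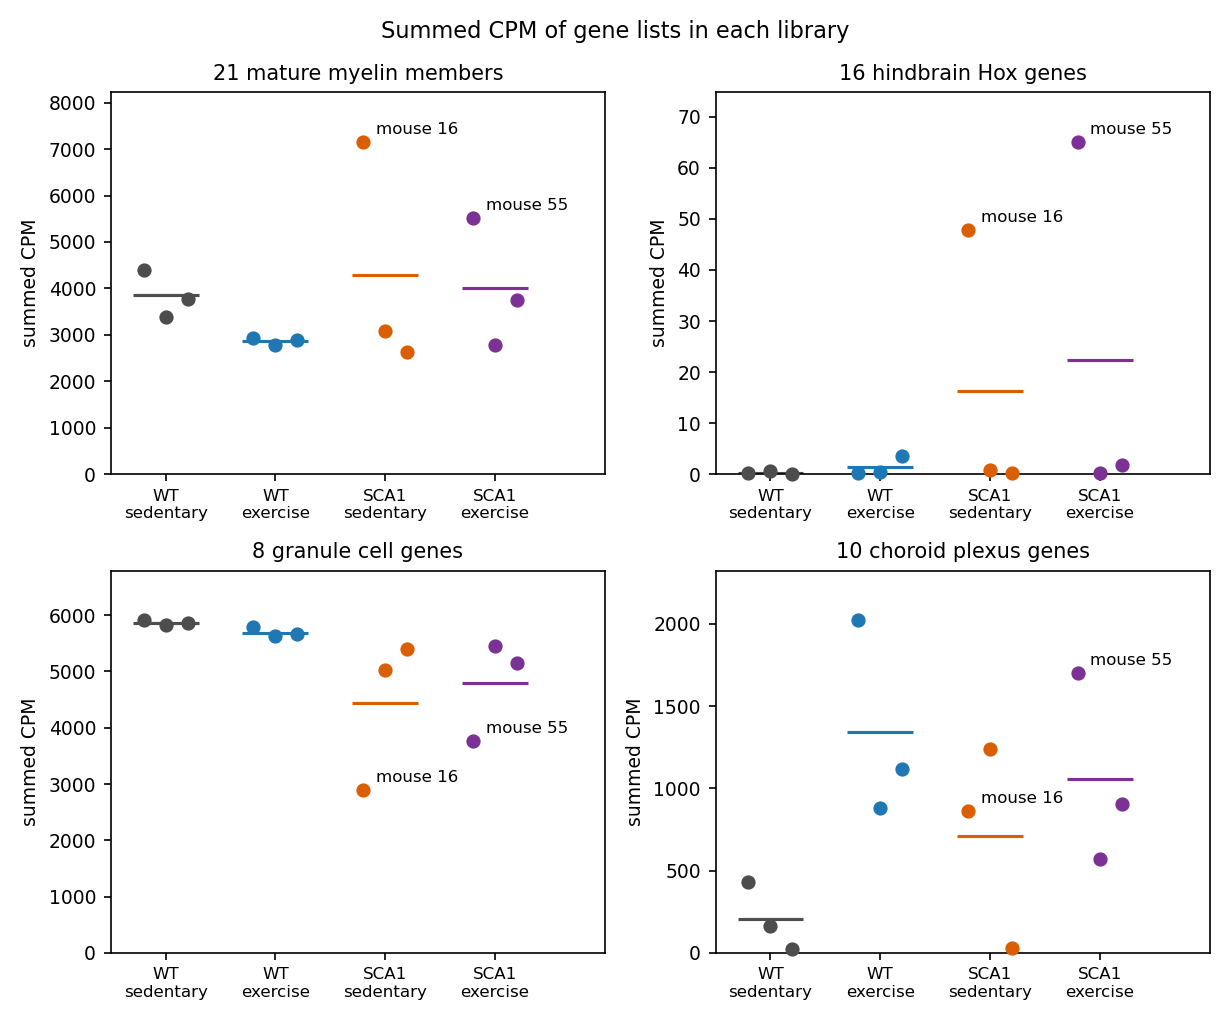
Points are libraries, horizontal bars group means (n = 3), and the y axis is the summed CPM of each list. Mice 16 and 55 are the highest in the mature myelin and Hox lists and the lowest in the granule cell list, whereas the choroid plexus list is highest in WT exercise mouse 121, at 2021 CPM.

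Promoter sequences are shown for a transcription factor, 2 sheath proteins and a precursor gene, since Sox10 and the Olig proteins, which bind SOX and E-box elements, are themselves members. RefSeq promoters on GRCm38.p6 matched 23 of the 31 members. In the 250 bases before the start, a SOX core (ACAAAG or ACAATG, either strand) was present in 13 of the 23, or 56.5%, against 28.2% of 27025 genes. An E-box of the kind Olig factors bind (CAGCTG or CATCTG, either strand) was present in 9 of 23, or 39.1%, against 28.2%. A match is a description of the letters and not a bound site, and its relation to the values of these libraries was not tested. Capitals mark SOX cores in Olig2, Cnp and Mobp, the last with 6 of them, and an E-box in Pdgfra, whose window held no SOX core. The E-box was not particular to precursor genes, as mature members such as Opalin, Hapln2, Tspan2, Aspa and Gpr37 also had one.
Olig2, chr16:91225300-91225549, plus strand: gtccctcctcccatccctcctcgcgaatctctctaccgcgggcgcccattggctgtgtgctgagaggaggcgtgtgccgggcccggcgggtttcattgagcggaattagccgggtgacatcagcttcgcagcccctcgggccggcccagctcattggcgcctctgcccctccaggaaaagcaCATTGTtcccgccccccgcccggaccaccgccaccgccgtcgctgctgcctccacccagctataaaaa
Cnp, chr11:100574689-100574938, plus strand: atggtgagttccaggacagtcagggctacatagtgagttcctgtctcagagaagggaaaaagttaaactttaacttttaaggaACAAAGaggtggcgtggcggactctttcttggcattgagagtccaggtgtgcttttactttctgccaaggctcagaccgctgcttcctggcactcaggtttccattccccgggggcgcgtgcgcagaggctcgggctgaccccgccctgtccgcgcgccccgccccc
Mobp, chr9:120149492-120149741, plus strand: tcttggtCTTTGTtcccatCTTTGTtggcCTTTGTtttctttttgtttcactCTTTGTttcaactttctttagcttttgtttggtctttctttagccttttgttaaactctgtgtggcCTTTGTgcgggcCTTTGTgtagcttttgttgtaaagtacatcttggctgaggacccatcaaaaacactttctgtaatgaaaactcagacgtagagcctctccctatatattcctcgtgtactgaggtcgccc
Pdgfra, chr5:75152001-75152250, plus strand: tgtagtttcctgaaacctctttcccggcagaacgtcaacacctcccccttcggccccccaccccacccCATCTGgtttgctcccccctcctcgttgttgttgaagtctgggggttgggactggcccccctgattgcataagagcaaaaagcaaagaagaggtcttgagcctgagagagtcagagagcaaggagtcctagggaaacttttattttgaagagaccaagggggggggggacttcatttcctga

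In WT sedentary cerebellum the members spanned a wide range per kilobase of annotated exon. Mbp, the basic protein that holds the cytoplasmic faces of myelin together, led with 177 CPM per kilobase, and its counts include the Golli transcripts of the same gene. Trf, the iron carrier transferrin, followed at 78.9, Cnp, a myelin phosphodiesterase, at 75.5, and Mobp, a small basic protein of the sheath, at 51.2 CPM per kilobase. At the low end stood Opalin, a glycoprotein of the mature cell, at 1.64, and Gal3st1, the sulfotransferase that makes sulfatide, at 0.774. The precursor genes Pdgfra and Cspg4 had 1.78 and 1.65 CPM per kilobase. Exon lengths are from GENCODE M39. Mbp alone was 38.9% to 44.1% of the members' summed CPM in each of the 12 libraries. Of the Schwann cell genes reported here, Pmp2 was at 0 in every library, Prx and Cldn19 reached at most 1.27 and 0.284 CPM, and Ncmap ran from 1.07 to 3.27 CPM. Drp2 and Pmp22, from the same marker list, were well above 0, at 39.6 to 56.5 and 19.7 to 34.5 CPM. All 6 of 6 oligodendrocyte markers (Mog, Mag, Mobp, Cldn11, Ermn and Opalin) were above 0 in every library, but they are themselves members. Several members are made by other cells too: Trf by choroid plexus, Apod, Pdgfra and Cldn11 by meningeal fibroblasts, and Cspg4 by pericytes. The annotation places another gene on the same strand within Pdgfra, Enpp6, Mobp and Lpar1, so reads shared with it cannot be split.

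The first comparison asks what wheel running did in WT mice. Nearly the whole lineage was lower in the WT exercise mice: 29 of 31 members had a negative log2 fold change (log2FC), with a median of -0.43, against 0.00 over the 20341 genes tested, 50% of which were above 0. The 3 WT exercise values lay wholly below the 3 WT sedentary values in 23 of 31 members, a pattern seen in 11.1% of all genes tested. These 23 were 16 of the 21 mature genes, 5 of 5 transcription factors and 2 of 3 newly formed genes. No member passed the threshold of an adjusted p under 0.05 (edgeR's quasi-likelihood test on all 12 libraries, Benjamini-Hochberg) with an absolute log2FC over 0.5, nor did any other gene tested (0%). The count at an unadjusted p under 0.05 was 0 of 31, against 4.69% of all genes, and DESeq2 also gave 0 by either rule.

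The summed CPM of the 21 mature genes was 4402, 3396 and 3772 in WT sedentary mice 116, 117 and 192, and 2942, 2776 and 2891 in WT exercise mice 121, 197 and 201. The runners were alike and all below the sedentary mice, whose spread was much wider (508.5 against 85.4 CPM, SD, n = 3).

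Among the transcription factors, Olig1, a basic helix-loop-helix factor of the lineage, stood at 59.7, 42.3 and 49.7 CPM in WT sedentary and 33.1, 30.96 and 28.9 CPM in WT exercise mice (log2FC -0.71, SE 0.45, adjusted p = 0.958). It lies on chromosome 16, 91066660 to 91068821 on the plus strand (GRCm39), with no other annotated gene overlapping it on its own strand. All 3 runners were below all 3 sedentary mice. Its neighbour Olig2, which specifies the lineage, had 14.1, 10.04 and 12.4 CPM in WT sedentary and 7.97, 9.85 and 8.04 CPM in WT exercise mice (log2FC -0.50, SE 0.43, adjusted p = 0.958). Sox10, the SOX factor needed for terminal differentiation, had 35.1, 24.5 and 27.8 CPM in WT sedentary and 22.04, 17.8 and 21.6 CPM in WT exercise mice (log2FC -0.51, SE 0.39, adjusted p = 0.958). The same separation held for both. For Nkx6-2 the values were 8.02, 5.51 and 8.34 CPM in WT sedentary and 4.82, 4.51 and 4.73 CPM in WT exercise mice (log2FC -0.64, SE 0.50, adjusted p = 0.958). Myrf, the membrane-bound regulator of myelin genes, had the smallest difference of the 5, at -0.32 (95% interval -0.997 to 0.35), and its groups were also apart.

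Sheath proteins were lower in all 13 cases, with a median log2FC of -0.45, and 11 of 13 had groups apart. Mbp was present at 1933, 1482 and 1759 CPM in WT sedentary and 1267, 1229.9 and 1295 CPM in WT exercise mice (log2FC -0.45, SE 0.36, adjusted p = 0.958). Mog, an outer-surface glycoprotein, had 53.6, 36.8 and 46.1 CPM in WT sedentary and 33.3, 28.3 and 29.7 CPM in WT exercise mice (log2FC -0.58, SE 0.37, adjusted p = 0.958). Mal, a proteolipid of compact myelin membrane, had 103, 74.1 and 76.5 CPM in WT sedentary and 61.6, 60.05 and 58.2 CPM in WT exercise mice (log2FC -0.49, SE 0.36, adjusted p = 0.958). In each of these the runners formed a tight, lower set. Gjb1, which encodes connexin 32 of glial gap junctions, showed the largest fold of the sheath genes, with 17.7, 12.1 and 12.7 CPM in WT sedentary and 9.11, 7.97 and 9.09 CPM in WT exercise mice (log2FC -0.70, SE 0.46, adjusted p = 0.958). Cnp had 359, 263 and 295 CPM in WT sedentary and 236, 208 and 214 CPM in WT exercise mice (log2FC -0.48, SE 0.32, adjusted p = 0.958). The remaining sheath genes with groups apart were Mag, an adhesion molecule facing the axon, Mobp, Cldn11, the tight junction claudin of myelin, Ermn, a cytoskeletal protein, Hapln2, a link protein of the nodal matrix, and Tmem125. Their log2FC ran from -0.65 for Tmem125 to -0.33 for Hapln2. Tspan2, a tetraspanin, and Opalin overlapped between groups, at -0.26 and -0.51.

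The lipid and metabolism genes were lower in 6 of 6, with a median of -0.40. Ugt8a, the galactosyltransferase that makes cerebroside, had 63.1, 49.8 and 48.8 CPM in WT sedentary and 37.9, 39.4 and 39.9 CPM in WT exercise mice (log2FC -0.47, SE 0.34, adjusted p = 0.958). Transferrin had 507, 399 and 441 CPM in WT sedentary and 339.6, 318 and 339 CPM in WT exercise mice (log2FC -0.43, SE 0.29, adjusted p = 0.958). Choroid plexus also makes Trf, and its marker genes were higher in the runners (values follow). Fa2h, which hydroxylates myelin fatty acids, had a log2FC of -0.38 and Aspa one of -0.28, both with groups apart. Gal3st1 (-0.65) and Apod, a lipid-binding apolipoprotein (-0.23), overlapped. Of the receptors, Gpr37, an orphan receptor of the mature cell, had -0.44 with groups apart, and Lpar1, a lysophosphatidic acid receptor, -0.10 with groups overlapping.

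The early stages differed among themselves. Pdgfra had 21.5, 20.8 and 23.4 CPM in WT sedentary and 23.5, 23.2 and 23.9 CPM in WT exercise mice (log2FC 0.10, SE 0.27, adjusted p = 0.979). Gpr17, a receptor of the premyelinating cell, had 11.7, 8.59 and 15.1 CPM in WT sedentary and 10.4, 12.9 and 14.2 CPM in WT exercise mice (log2FC 0.08, SE 0.39, adjusted p = 0.989). Cspg4 had 17.99, 16.5 and 24.8 CPM in WT sedentary and 16.6, 14.5 and 18.7 CPM in WT exercise mice (log2FC -0.25, SE 0.20, adjusted p = 0.958). The groups overlapped in all 3, and Pdgfra and Gpr17 were the only members with a positive log2FC. By contrast Enpp6, a choline phosphodiesterase of newly forming oligodendrocytes, had 12.9, 10.4 and 10.04 CPM in WT sedentary and 7.84, 8.18 and 8.81 CPM in WT exercise mice (log2FC -0.42, SE 0.33, adjusted p = 0.958). Bcas1, a marker of actively myelinating cells, had 125, 86.4 and 98.1 CPM in WT sedentary and 77.98, 77.5 and 83.5 CPM in WT exercise mice (log2FC -0.37, SE 0.36, adjusted p = 0.958). Both had groups apart.

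**Figure D3:**
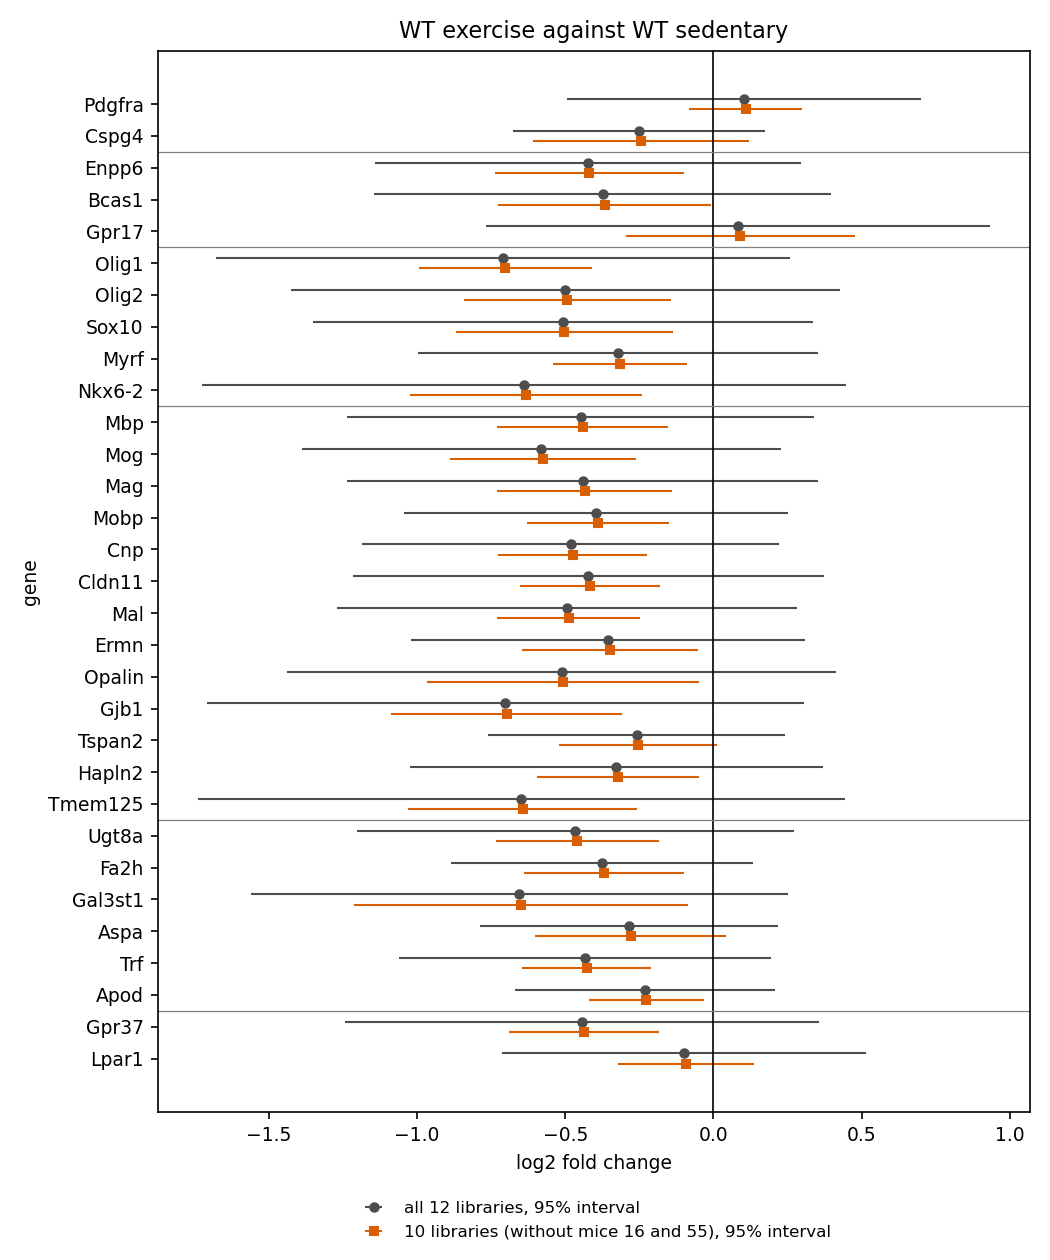
Log2FC of each member for WT exercise against WT sedentary, with 95% intervals. Grey circles are the fit to all 12 libraries and orange squares the fit to 10 libraries without mice 16 and 55. The paired points nearly coincide while the intervals are narrower in the 10-library fit, where they lie wholly below 0 for 25 members.

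The number of members past a threshold depended on libraries that were in neither group. Without mice 16 and 55, the spread shared by the groups was smaller: the SE of Olig1 was 0.14 in place of 0.45, 25 of 31 members had an unadjusted p under 0.05, all lower, against 6.8% of all genes lower, and Olig1 was called (log2FC -0.70, SE 0.14, adjusted p = 0.0498 in edgeR), as were 0.312% of all genes. Leaving out mouse 16 alone gave 12 members at that unadjusted p, against 4.66% of all genes lower, and none called. On the 6 WT libraries alone, 27 of 31 had an unadjusted p under 0.05, against 8.02% of all genes lower, and Olig1 was again called (log2FC -0.70, SE 0.12, adjusted p = 0.0179 in edgeR), as were 0.777% of all genes. In the 6-library fit Mbp (log2FC -0.44, SE 0.08, adjusted p = 0.0367) and Trf (log2FC -0.42, SE 0.08, adjusted p = 0.043) also had an adjusted p under 0.05, with an absolute log2FC under 0.5, and Olig1 was the 1 member called in each of these fits.

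Other tissue marks differed between the same mice. All 10 of 10 choroid plexus genes were higher in WT exercise with groups apart, and their summed CPM was 432, 161 and 22.8 in WT sedentary and 2021, 880.1 and 1120.1 in WT exercise mice, with none of the 10 genes at 0 in any library. Slc4a5, a bicarbonate transporter of that epithelium, had a log2FC of 3.18 (SE 0.71, adjusted p = 0.407, edgeR). Microglial genes were lower in 7 of 7, 5 with groups apart, and their sum was 109.7, 97.04 and 101 against 89.3, 82.8 and 88.1 CPM. Meningeal and fibroblast genes were higher in 9 of 10, 5 with groups apart (median log2FC 0.61), and their sum was 62.7, 78.9 and 114 against 97.4, 117 and 129 CPM. Pericyte genes were higher in 6 of 7, 3 with groups apart, at 168, 161 and 176 against 177, 173 and 196 CPM. None of these lists had a gene called by edgeR. At an unadjusted p under 0.05 (edgeR) were 9 of 10 choroid plexus, 5 of 10 meningeal and fibroblast, 1 of 7 microglial and 1 of 7 pericyte genes, against 4.69% of all genes. DESeq2 called 3 choroid plexus genes and 0 in the other lists named, against 62 of the 20341 genes tested. Over all genes, 10.1% had groups apart and higher and 11.1% apart and lower. The sum of 8 granule cell genes was 5909, 5832 and 5862 in WT sedentary and 5787, 5625 and 5661 CPM in WT exercise mice. Read pairs assigned to no gene on the reverse strand, such as those in introns, made up 46.0, 51.8 and 50.5% of the WT sedentary and 50.9, 56.5 and 56.8% of the WT exercise libraries, an overlapping range that was on average higher in the runners. The part of each in the myelin values was not tested.

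A wider list of 25 further genes of the mature oligodendrocyte was also lower in WT exercise mice, in 25 of 25 genes, with a median log2FC of -0.39. Groups were apart in 18 of them, against 11.1% of all genes apart and lower. Evi2a had the lowest unadjusted p of these (-0.58, SE 0.25, adjusted p = 0.958, edgeR), and none was called. Of 15 further precursor and newly formed genes, 10 were higher and 5 lower (median 0.04). Bmp4, a growth factor that can hold back differentiation, had the highest log2FC among them (1.17, SE 0.33, adjusted p = 0.679), and is also made by non-glial cells. Cholesterol, a bulk lipid of myelin, is made by 19 enzymes measured here, and 18 of them were lower (median -0.15), 5 with groups apart. The members' median of -0.43 was further from 0 than that of the cholesterol list, and that difference was not tested.

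The second comparison asks how the lineage differed between genotypes at rest. With all 12 libraries, 25 of 31 members were higher in sedentary SCA1 mice, against 52.5% of all genes (median log2FC 0.14, and 0.09 for the mature genes, against 0.02 over all genes), and no member had groups apart, a pattern seen in 5.6% of all genes higher and 5.76% lower. EdgeR called 0 members and 0.0344% of all genes, 0 of 31 had an unadjusted p under 0.05, against 10.1% of all genes, and DESeq2 gave 0 by either rule. The direction turned on mouse 16. Without it, 29 of 31 members were lower in SCA1 sedentary mice, the median of the mature genes was -0.51, and 20 of 31 had groups apart, all lower, against 16.2% of all genes apart and lower and 14.9% apart and higher, since 2 mice remained. At an unadjusted p under 0.05 there were then 13 of 31, all lower, against 8.28% of all genes lower, and 0 were called. Mouse 16 was the highest of the 12 libraries in all 31 members. Leaving it out had to lower each SCA1 sedentary mean, so the counts without it, here and below, are not independent support.

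The summed CPM of the mature genes shows the same split, with 7155 in mouse 16, above every WT sedentary mouse, and 3087 and 2639 in mice 194 and 195, below every one. Ugt8a had 63.1, 49.8 and 48.8 CPM in WT sedentary mice, and 85.6 CPM in SCA1 sedentary mouse 16 but 31.4 and 32.1 CPM in mice 194 and 195. Its log2FC was -0.11 with all libraries (SE 0.34, adjusted p = 0.938, edgeR), -0.77 without mouse 16 (adjusted p = 0.171) and -0.75 without mice 16 and 55 (SE 0.15, adjusted p = 0.0312). In that last fit it was the 1 member called, as were 1% of all genes, and 23 of 31 members had an unadjusted p under 0.05, all lower, against 9.51% of all genes lower. The gene lies on chromosome 3, 125654459 to 125732736 on the minus strand (GRCm39).

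Among newly formed genes, Enpp6 had 12.9, 10.4 and 10.04 CPM in WT sedentary mice, and 17.7 CPM in SCA1 sedentary mouse 16 but 6.46 and 6.69 CPM in mice 194 and 195. For the surface glycoprotein Mog the values were 53.6, 36.8 and 46.1 CPM in WT sedentary mice, and 88.5 CPM in SCA1 sedentary mouse 16 but 27.9 and 30.5 CPM in mice 194 and 195. Opalin had 12.1, 7.99 and 10.8 CPM in WT sedentary mice, and 18.4 CPM in SCA1 sedentary mouse 16 but 5.65 and 6.64 CPM in mice 194 and 195. In all 3 the lone high library was mouse 16. Without mice 16 and 55 the log2FC of Enpp6 was -0.74 (SE 0.17, adjusted p = 0.0538), that of Mog -0.62 (SE 0.17, adjusted p = 0.075) and that of Opalin -0.73 (SE 0.25, adjusted p = 0.124). The sheath proteins then had a median of -0.54 and the transcription factors -0.46.

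The split was not of one size. Mbp had 1933, 1482 and 1759 CPM in WT sedentary mice, and 3474 CPM in SCA1 sedentary mouse 16 but 1466 and 1125 CPM in mice 194 and 195. Bcas1 had 125, 86.4 and 98.1 CPM in WT sedentary mice, and 232 CPM in SCA1 sedentary mouse 16 but 104 and 78.3 CPM in mice 194 and 195. Hapln2 had 30.8, 25.1 and 31.2 CPM in WT sedentary mice, and 59.4 CPM in SCA1 sedentary mouse 16 but 29.6 and 21.7 CPM in mice 194 and 195. For Mbp both mice 194 and 195 were below the WT sedentary mice, while for Bcas1 and Hapln2 mouse 194 lay among them. Without mice 16 and 55 the log2FC of Bcas1 was -0.16 and that of Hapln2 -0.16, the smallest of the newly formed and of the sheath genes. The precursor genes did not follow: Pdgfra was at 45.2, 22.6 and 22.3 CPM in mice 16, 194 and 195 against 21.5, 20.8 and 23.4 in WT sedentary mice, and its log2FC without mice 16 and 55 was 0.05 (95% interval -0.16 to 0.27). Cspg4 had 0.16 there (95% interval -0.25 to 0.56).

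**Figure D4:**
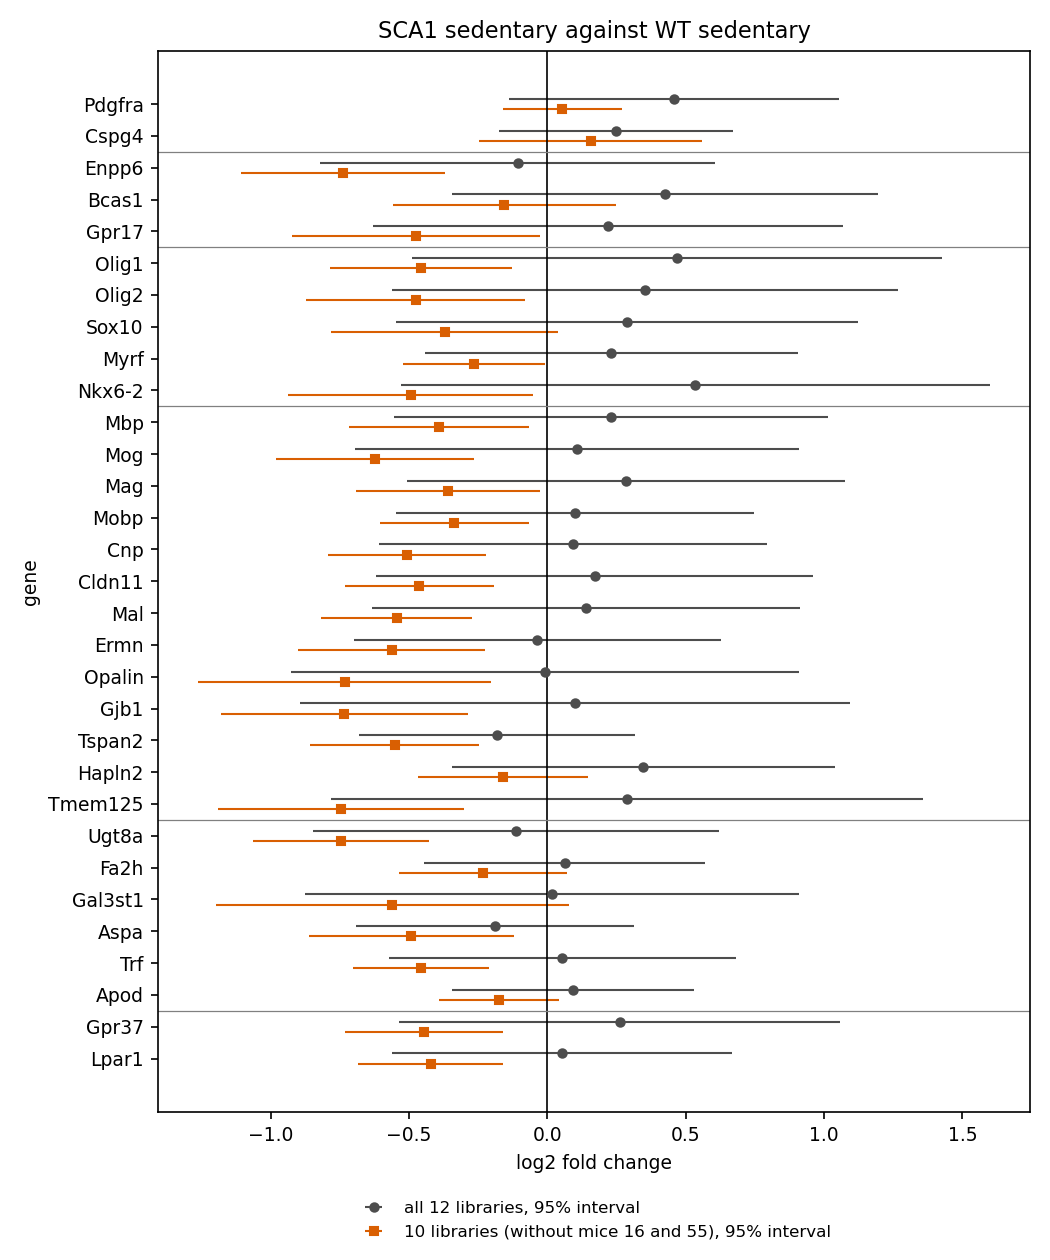
Log2FC of each member for SCA1 sedentary against WT sedentary, with 95% intervals. Grey circles include mouse 16, with a median of 0.14, and orange squares leave out mice 16 and 55, with a median of -0.46 and both precursor genes above 0.

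Among the wider lists, the 25 further mature genes moved from 14 higher and 11 lower with all libraries to 24 of 25 lower without mice 16 and 55 (median -0.38), where 2 of them were called. The 19 cholesterol enzymes moved from 16 higher to 14 lower (median -0.17), with 0 called. Further precursor and newly formed genes stood at 8 higher and 7 lower in that fit. In the 12-library fit Itpr2, a calcium release channel, had the lowest p of these (0.42, SE 0.09, adjusted p = 0.15, edgeR). Purkinje cell genes were lower in 8 of 8 in the 12-library fit, 2 of them called, and their sum was 4536, 6042 and 5937 CPM in mice 16, 194 and 195 against 7447, 8398 and 7594 in WT sedentary mice. That sum was lowest in mouse 16, where the myelin genes were highest. The choroid plexus sum was 1239 CPM in mouse 194 and 30.6 CPM in mouse 195. The microglial sum was 79.1 and 84.3 CPM in these mice against 109.7, 97.04 and 101 in WT sedentary mice. Astrocyte and Bergmann glia genes, at 2359.8 and 2542 CPM in these mice against 3144, 3204 and 2804, were lower in 8 of 8 without mice 16 and 55, 7 with groups apart (median log2FC -0.44). Granule cell genes, at 5025 and 5402 CPM against 5909, 5832 and 5862, were lower in 6 of 8 there, 4 with groups apart. Meningeal and fibroblast genes, at 114 and 98.1 CPM against 62.7, 78.9 and 114, were higher in 8 of 10 there, 4 with groups apart and 1 called. Over all genes in that fit, 16.3% had groups apart and lower and 15% apart and higher, and 1% were called. The share of read pairs in no gene was 52.7% and 58.7% in mice 194 and 195. The part of these cell types or of this share in the myelin values was not tested.

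The third comparison asks what running did in SCA1 mice. The members were split, with 10 higher and 21 lower in SCA1 exercise mice, where 48.1% of all genes were higher (median -0.08, and -0.03 for the mature genes, against -0.01 over all genes), and none had groups apart, against 2.43% of all genes higher and 2.07% lower. EdgeR called 0 members and 0% of all genes, 0 members had an unadjusted p under 0.05, against 2.17% of all genes, and DESeq2 gave 0 by either rule. Each SCA1 group held 1 of the high libraries, and the direction depended on which was left out: the mature median was -0.33 without mouse 55, 0.51 without mouse 16 and 0.23 without both. For Mbp the values were 3474, 1466 and 1125 CPM in SCA1 sedentary mice 16, 194 and 195 and 2609, 1178 and 1734 CPM in SCA1 exercise mice 55, 122 and 198. Mouse 198 was above mice 194 and 195 while mouse 122 was between them. Without mice 16 and 55, 28 of 31 members were higher in the runners and 10 of 31 had groups apart, all higher, against 17.9% of all genes apart and higher and 18.6% apart and lower with 2 mice a side, and 5 had an unadjusted p under 0.05 (Enpp6, Ugt8a, Mal, Mog and Tspan2), against 3.69% of all genes higher. Enpp6 had a log2FC of 0.65 (SE 0.19, adjusted p = 0.565, edgeR) and Ugt8a of 0.50 (SE 0.16, adjusted p = 0.565) there.

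The fourth comparison sets the genotypes side by side among runners. All 31 members were higher in SCA1 exercise than in WT exercise mice, as were 50.7% of all genes, with a median log2FC of 0.47 against 0.00 over all genes. Groups were apart in 4 of 31 (Olig1, Nkx6-2, Mog and Mal), all higher, against 7.32% of all genes apart and higher and 6.92% apart and lower. With only 4 members apart, their share was above that of all genes apart and higher and near that of all genes apart in either direction. EdgeR called 0 members and 0% of all genes and found 0 members at an unadjusted p under 0.05, against 2.93% of all genes. DESeq2 called 0 and found 1, Nkx6-2. Olig1 was at 33.1, 30.96 and 28.9 CPM in WT exercise mice and 80.5, 35.6 and 50.97 CPM in SCA1 exercise mice (log2FC 0.85, SE 0.45, adjusted p = 0.96, edgeR). Mouse 55 was the highest, but mice 122 and 198 were also above all WT runners. For Nkx6-2 the WT runners had 4.82, 4.51 and 4.73 CPM and the SCA1 runners 13.3, 5.92 and 7.202 CPM (log2FC 0.91, SE 0.50, adjusted p = 0.96, edgeR). For Mog they had 33.3, 28.3 and 29.7 and 61.8, 33.3 and 49.0004 CPM (log2FC 0.66, SE 0.37), and for Mal 61.6, 60.05 and 58.2 and 128, 71.6 and 79.9 CPM (log2FC 0.64, SE 0.36). In Mog, mouse 122 exceeded the highest WT runner only narrowly. Without mouse 55 the mature median was 0.20 in place of 0.46, and without mouse 16, which is in neither group, 20 of 31 members had an unadjusted p under 0.05, all higher, against 4.96% of all genes higher and 8.45% in either direction, with 0 called. Without both mice 4 members, Olig1, Mal, Mog and Nkx6-2, had an unadjusted p under 0.05, against 2.72% of all genes higher, and Olig1 had a log2FC of 0.49 (SE 0.15, adjusted p = 0.37, edgeR). Purkinje cell genes summed to 8380.2, 8028 and 7884 CPM in WT exercise and 7411, 7241 and 6122 CPM in SCA1 exercise mice, and the lowest of these 6 was mouse 198, the higher in mature genes of the 2 SCA1 runners other than mouse 55.

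The interaction asks whether running and genotype combined other than additively. It was positive in 29 of 31 members and in 48.9% of all genes, that is, running went with a higher or less lowered level in SCA1 than in WT mice, with a median of 0.34 (mature genes 0.36, 21 of 21 positive) against -0.01 over all genes. The precursor genes were the exceptions, Pdgfra at -0.27 and Cspg4 at -0.06, and both were positive without mouse 16 (0.16 and 0.05). EdgeR called 0 members and 0% of all genes, 0 members had an unadjusted p under 0.05, against 3.78% of all genes, and DESeq2 gave 0 by either rule. For Mbp the interaction was 0.31 (95% interval -0.80 to 1.42), wide enough to hold either sign. The mature median ran from 0.11 without mouse 55 to 0.92 without mouse 16. Without mouse 16, 27 of 31 members had an unadjusted p under 0.05, all positive, against 8.95% of all genes positive. Without mice 16 and 55 there were 22, all positive, against 6.86% of all genes positive, and the mature median was 0.63. Mal had the lowest p in that fit (0.89, SE 0.18, adjusted p = 0.116, edgeR), and 0 members were called in either. The interaction and the 4 pairwise comparisons share libraries, and their values are not independent of each other.

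Stages of the lineage can be set against each other within a library, where depth cancels. Precursor CPM per 100 mature CPM was 0.898, 1.098 and 1.28 in WT sedentary mice 116, 117 and 192 and 1.36, 1.36 and 1.47 in WT exercise mice 121, 197 and 201. All 3 runners were above all 3 sedentary mice, and the summed precursor CPM itself overlapped (39.5, 37.3 and 48.2 against 40.04, 37.8 and 42.6). Pdgfra and Cspg4 are also made by meningeal fibroblasts and pericytes, whose marker lists were mostly higher in the WT runners. The part of those cells in the ratio was not tested. In SCA1 sedentary mice 16, 194 and 195 the ratio was 1.01, 1.56 and 1.52, and in SCA1 exercise mice 55, 122 and 198 it was 1.06, 1.29 and 1.13. Mice 16 and 55 had the lowest ratios of their groups. Newly formed CPM per 100 mature CPM varied less, from 3.104 to 3.89 over the 12 libraries, and was 3.399, 3.104 and 3.27 in WT sedentary and 3.27, 3.55 and 3.68 in WT exercise mice. Bcas1 made up most of the newly formed sum, with a mean of 103 of 126 CPM in WT sedentary mice, so this ratio says little of Enpp6 and Gpr17.

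**Figure D5:**
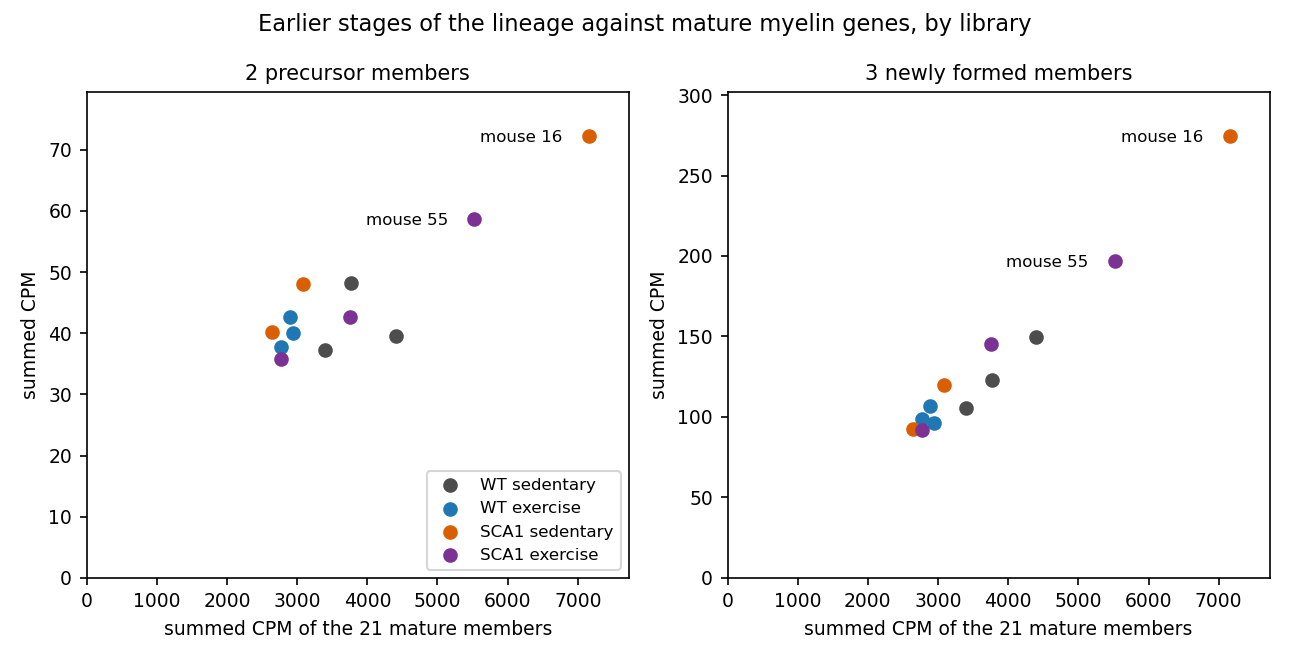
Each point is a library, with the summed CPM of the 21 mature genes on the x axis and that of the 2 precursor genes (left) or 3 newly formed genes (right) on the y axis. Newly formed sums are broadly larger where mature sums are larger. Precursor sums are also highest in mice 16 and 55, at 72.2 and 58.7 CPM, and range from 35.7 to 48.2 CPM in the other 10 libraries.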

How the data were processed

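Counts were deposited per gene for each library by the authors, as STAR gene counts in 3 columns (unstranded, forward, reverse). Per the labels' processing notes the tools were fastp 0.24.0 and STAR 2.7.10a with build GRCm39. The reverse column was used here, since the forward column held 5.54% to 6.01% of the forward and reverse counts together. Summary lines that name no gene were left out of library sizes, and the one for read pairs in no gene held 39.3% to 58.7% of read pairs. Depth was 20556802 to 32127508 counts per library, which limits precision for the scarcest members.

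All 12 libraries were fitted at once in edgeR 4.0.16 (R 4.3.3; filterByExpr, TMM, quasi-likelihood test, 4 groups), which left 20341 genes, all 31 members among them, with Benjamini-Hochberg adjustment over all of them. Called genes had an absolute log2FC over 0.5 with their adjusted p under 0.05. CPM were scaled by TMM library size, and a prior count of 2 was added before taking log2. The 95% intervals used the fit's degrees of freedom. Groups were said to be apart where no library of one reached any of the other. DESeq2 1.42.0, the 2 groups compared alone, another scaling, another filter, unstranded counts, terms for mouse number bands or the Hox score, fits without mice 16 and 55, and 12 fits leaving out 1 library were alternatives. The script was tested on simulated data.

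Groups and mouse numbers came from the sample labels, which describe each mouse as its own animal. All 31 members were named, and of other lists at most 3 genes with the lowest p under 0.05 in a comparison, plus markers. The members, lists and tests were chosen with earlier results of these data known, so none is independent support.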

Additional observations from a re-analysis of the deposited data

How the results depend on the processing

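The median log2FC of the mature genes in WT exercise mice stayed below 0 in every alternative run (of single mature genes, Lpar1 alone turned, to 0.02 without mouse 116), while the number of members past a threshold, and the direction for genotype at rest and for exercise in SCA1 mice, depended on the setting. Relative to the 12-library edgeR fit (0 members called and 0 at an unadjusted p under 0.05 in each comparison), DESeq2 put 1 member at an unadjusted p under 0.05 in SCA1 exercise against WT exercise. Fitting the 2 groups compared alone put 27 members there and called 1 for exercise in WT mice, and put 13 there in SCA1 exercise against WT exercise. Keeping all genes with at least 1 count put 2 and 8 there in those comparisons. A term for bands of mouse numbers put 9 there for genotype at rest (mature median -0.37), 22 for exercise in WT mice and 7 for the interaction. A term for the Hox score gave 14 (mature median -0.42), 25 and 11. The lowest band of mouse numbers held only mice 16 and 55, which also had the highest Hox sums. Both terms and the fit without these mice thus set aside largely the same libraries, and they are not separate checks. Without mice 16 and 55 the counts were 23 for genotype at rest (mature median -0.49, 1 called), 25 for exercise in WT mice (1 called), 5 for exercise in SCA1 mice, 4 for genotype among runners and 22 for the interaction. Another scaling (RLE) and unstranded counts moved none of these. Leaving out 1 library at a time, the mature median ran from -0.51 (without mouse 16) to 0.31 (without mouse 195) for genotype at rest, from -0.51 (without mouse 117) to -0.33 (without mouse 116) for exercise in WT mice, from -0.33 (without mouse 55) to 0.51 (without mouse 16) for exercise in SCA1 mice, from 0.20 (without mouse 55) to 0.65 (without mouse 122) for genotype among runners, and from 0.11 (without mouse 55) to 0.92 (without mouse 16) for the interaction. Members at an unadjusted p under 0.05 ran from 0 to 13, 0 to 12, 0 to 15, 0 to 20 and 0 to 27 in that order, each highest without mouse 16, and 0 were called in any of the 12 fits. Over all genes, edgeR called 7 for genotype at rest and 0 elsewhere, against 201 and, in the order above, 63, 1, 3 and 2 by DESeq2 over its own gene set (200, 62, 1, 2 and 2 among the 20341 genes), and 205, 64, 0, 37 and 0 without mice 16 and 55. The cause of these shifts was not tested. No paired analysis was possible because the labels give each mouse its own number and the groups share none. With 3 mice a group and 20556802 to 32127508 counts a library, effect sizes within an interval given could not be told apart by that fit. The widths of these intervals depended on which libraries were fitted, mice 16 and 55 among them.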
